A study of Mus musculus with 20 samples.

Results

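The Ifi200 family is a cluster of related genes on mouse chromosome 1. It was followed here through 10 members, Ifi203, Ifi204, Ifi205, Ifi206, Ifi207, Ifi208, Ifi209, Ifi213, Mndal and Aim2, taken by gene symbol from the 28338 genes of the deposited count table. It was chosen by the level of Ifi208 in B cells, which was about 4 times lower in March1-/- than in WT mice. That difference is therefore described and not tested. The tests given concern other comparisons. All 10 members passed the filter on low counts.

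RNA was sequenced from cells sorted out of the spleens of C57BL/6 mice on postnatal day 21. March1 encodes a ubiquitin ligase of antigen-presenting cells. The 20 libraries form 5 groups of 4: from mice labelled March1-/-, CD11cintCD24+CD8int cells (called CD11cint below), type 1 conventional dendritic cells (cDC1, which take up and cross-present antigen) and B cells, and from wild-type (WT) mice, cDC1 and B cells. CD11cint cells of WT mice were not analysed here, and the number of mice behind a library and the deleted part of March1 are not given in the sources used here. A library held 22491084 to 32751804 counts, so that 3 counts, taken as the floor of detection, correspond to 0.0871 to 0.138 CPM (counts per 1000000 counts of a library). The 7 B cell markers together reached 7580 to 8532 CPM in CD11cint cells, 7202 to 7667 CPM in B cells of March1-/- mice and 7068 to 7461 CPM in those of WT mice. The 9 cDC1 markers together came to 28.7 to 36.3 CPM in CD11cint cells, against 4477 to 4836 CPM in cDC1 of March1-/- mice and 4624 to 5277 CPM in cDC1 of WT mice. Library 1 of CD11cint cells and library 1 of March1-/- cDC1 stood apart from the others of their group (chi-square per gene 41.7 to 65.0 in pairs of libraries that hold one of them and at most 21.3 in other pairs of a group). Calls of family members given below that change without them are named. For pathway lists the range of the count with 1 library left out is given. Nothing in the labels says that libraries of a group came from separate mice, so p-values measure the spread between libraries.

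Proteins of this family, the PYHIN proteins, typically carry an N-terminal pyrin domain, through which they meet other proteins, and a C-terminal HIN domain, which can bind DNA. AIM2 is the best known: it binds double-stranded DNA in the cytosol and recruits the adaptor ASC to form an inflammasome. Many members are induced by interferon, and Ifi204 (p204) has been studied in mouse cells as a DNA sensor that signals through STING. The functions of Ifi206, Ifi207, Ifi208, Ifi209 and Ifi213 are less well described. The cluster expanded in rodents, and neighbouring copies share long stretches of sequence.

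In the order of the chromosome (GRCm38), the genes run Aim2, Ifi206, Ifi214, Ifi213, Ifi209, Ifi208, Ifi207, Ifi204, Mndal, Ifi211, Ifi203, Ifi202b and Ifi205, over 681 kb at chr1:173350879-174031810. Ifi214, Ifi211 and Ifi202b are further protein-coding members of the cluster and are used for comparison. Ifi208 (ENSMUSG00000066677, plus strand, 5258 exon bases) lies at chr1:173673675-173698395, 25.7 kb beyond Ifi209 and 25 kb before Ifi207. Exons overlap another annotated gene only slightly: 4.27% of the exon bases of Mndal and 0.552% of those of Ifi203, on the same strand, and none of the other 8 members.

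The copies are harder to tell apart by sequence than by position. Of the distinct 75-base stretches of Ifi208 transcripts, 11.8% also occur in transcripts of another gene, 9.04% in Ifi213 and 4.4% in Ifi206. The share was 5.92% at 100 bases and 20.9% at 50 bases. At 75 bases it was 23.1% for Ifi209, all of it with Ifi214, 17.6% for Ifi206, 16.6% for Ifi205, mostly with Ifi211, 13.2% for Ifi204, 11.1% for Mndal, 8.07% for Ifi213, 5.71% for Ifi203, 2.8% for Ifi207 and 0 for Aim2. The read length and the treatment of reads that match several genes are not stated in what was used here. Counts of genes that share such stretches are therefore uncertain to the extent that such reads were split or dropped. This concerns Ifi208 with Ifi213 and Ifi206, Ifi209 with Ifi214, and Ifi204 and Ifi205 with Ifi211, among others.

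The promoters show the same kinship, and are printed here because the 3 most alike belong to Ifi208, Ifi206 and Ifi213, which had different levels in the same libraries. RefSeq gives 11 promoter stretches for 9 members on GRCm38.p6, each from 250 bases before to 50 bases after the start of transcription; Ifi204 had no entry. The stretches of Ifi206 and Ifi208 were identical at 279 of 281 aligned bases (99.3%), those of Ifi208 and Ifi213 at 282 of 285 (98.9%), and those of Ifi206 and Ifi213 at 263 of 266 (98.9%). Ifi207 and Ifi205, the members that were highest in cDC1 relative to B cells, were alike at 88.7% of 204 aligned bases, and Ifi203 and Mndal at 97.6% of 289. Capitals mark the core of an interferon-stimulated response element, which reads GAAA, any 2 bases, GAAA, on either strand. The stretches lie at chr1:173673415-173673714 (Ifi208, plus strand), chr1:173491269-173491568 (Ifi206, minus strand), chr1:173599223-173599522 (Ifi213, minus strand), chr1:173741760-173742059 (Ifi207, minus strand), chr1:174031706-174032005 (Ifi205, minus strand) and chr1:173630609-173630908 (Ifi209, plus strand).
Ifi208: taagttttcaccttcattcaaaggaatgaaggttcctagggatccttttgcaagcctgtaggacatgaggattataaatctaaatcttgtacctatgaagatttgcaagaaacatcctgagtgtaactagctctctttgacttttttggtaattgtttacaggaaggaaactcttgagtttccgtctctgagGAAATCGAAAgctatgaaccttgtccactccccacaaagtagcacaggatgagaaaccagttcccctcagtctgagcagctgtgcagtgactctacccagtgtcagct
Ifi206: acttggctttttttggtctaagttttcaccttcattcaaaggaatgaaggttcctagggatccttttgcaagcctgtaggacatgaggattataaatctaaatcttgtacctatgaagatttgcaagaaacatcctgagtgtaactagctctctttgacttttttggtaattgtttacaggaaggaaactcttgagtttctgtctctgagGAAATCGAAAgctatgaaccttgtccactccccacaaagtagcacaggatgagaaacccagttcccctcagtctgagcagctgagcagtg
Ifi213: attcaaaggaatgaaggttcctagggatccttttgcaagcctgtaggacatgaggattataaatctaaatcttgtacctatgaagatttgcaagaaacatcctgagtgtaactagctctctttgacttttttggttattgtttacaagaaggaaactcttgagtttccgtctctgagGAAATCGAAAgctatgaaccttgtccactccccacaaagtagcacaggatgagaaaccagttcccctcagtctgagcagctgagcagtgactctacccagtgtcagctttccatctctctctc
Ifi207: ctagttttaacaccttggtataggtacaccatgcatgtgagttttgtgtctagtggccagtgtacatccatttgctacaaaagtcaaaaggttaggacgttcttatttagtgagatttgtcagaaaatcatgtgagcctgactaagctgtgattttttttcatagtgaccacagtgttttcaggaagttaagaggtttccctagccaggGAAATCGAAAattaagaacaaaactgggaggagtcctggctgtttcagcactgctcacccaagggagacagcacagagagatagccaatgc
Ifi205: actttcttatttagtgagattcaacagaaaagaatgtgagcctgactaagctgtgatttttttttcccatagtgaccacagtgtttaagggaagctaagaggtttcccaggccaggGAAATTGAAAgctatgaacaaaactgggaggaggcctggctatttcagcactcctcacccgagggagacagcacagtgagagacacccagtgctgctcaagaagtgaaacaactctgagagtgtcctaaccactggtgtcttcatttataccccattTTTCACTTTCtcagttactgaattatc
Ifi209: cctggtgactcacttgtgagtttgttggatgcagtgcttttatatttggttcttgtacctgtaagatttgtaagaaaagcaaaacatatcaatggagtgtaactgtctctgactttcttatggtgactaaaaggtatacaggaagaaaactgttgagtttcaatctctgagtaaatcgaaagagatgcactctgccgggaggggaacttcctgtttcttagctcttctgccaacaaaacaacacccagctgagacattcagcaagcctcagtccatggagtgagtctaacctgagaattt

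Of the 9 members with an entry, 7 had this motif in at least 1 stretch: Ifi203, Ifi205, Ifi206, Ifi207, Ifi208, Ifi213 and Mndal. The motif occurred in 3.44% of the 32851 mouse promoter stretches of the same length. Its first base lay at position -58 in Ifi208, -73 in Ifi213, -40 in Ifi206 and -41 in Ifi207, counted from the start of transcription. The ETS-IRF composite, GGAA, any 2 bases, GAAA (2.72% of all promoters) and the GAS element, TTC, any 3 bases, GAA (8.3%), searched on both strands, had no match in the family's stretches. A match describes letters and not a bound site. The stretches of Ifi208 and Ifi213 hold the same motif in nearly the same surroundings.

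Ifi208 was lower in March1-/- than in WT cells in both cell types. Its level in B cells was 12.6, 18.7, 13.2 and 11.96 CPM in March1-/- libraries, against 56.9, 58.2, 55.2 and 56.5 CPM in WT libraries. Every March1-/- library lay below every WT library, with more spread in March1-/- (14.1 ± 3.10 CPM, SD, n = 4) than in WT (56.7 ± 1.24 CPM, n = 4). The log2 fold change was -2.01 ± 0.12 (SE), and it ranged from -2.17 to -1.94 over 15 alternative settings. This difference chose the family, so no p is given.

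Between March1-/- and WT B cells, 4.76% of all tested genes passed an adjusted p of 0.05 (2.44% lower), and 5.43% were lower with no overlap between the groups. No call is given for members in this comparison, since it chose the family. The libraries of the other 9 members overlapped between genotypes. Their log2 fold changes lay between -0.42 ± 0.15 (Ifi207) and 0.11 ± 0.10 (Ifi203). Ifi213, the nearest relative of Ifi208 by transcript sequence, had 77.7, 109.8, 90.6 and 72.5 CPM in March1-/- B cells, against 107, 98.9, 99.7 and 130.5 CPM in WT B cells, a log2 fold change of -0.32 ± 0.12. Library 2 of March1-/- B cells was the highest of its group for both Ifi208 and Ifi213, and without it the log2 fold change of Ifi213 came to -0.44. Ifi206 had 93.2 to 118 CPM in March1-/- B cells and 104.6 to 113.6 CPM in WT B cells, a log2 fold change of -0.09 ± 0.09. Of the genes on either side of Ifi208, Ifi209 had 406 to 476 CPM in March1-/- B cells, against 399 to 456 CPM in WT B cells, and Ifi207 had 1.38 to 2.26 CPM in March1-/- B cells, against 1.89 to 2.97 CPM in WT B cells. The low level of Ifi208 was thus not seen in the adjacent genes to a like degree.

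Marker genes of B cell subsets moved in the same comparison. Of 7 marginal zone markers 5 were lower in March1-/- B cells (sum 1783 to 2650 CPM, against 2721 to 3368 CPM in WT), 5 of 5 tested immature or transitional markers were higher (sum over 6 listed genes 133 to 224 CPM, against 80.3 to 95.0 CPM in WT), and 3 of 5 follicular markers were higher (2546 to 3109 CPM, against 1899 to 2415 CPM in WT). In bulk RNA, fewer cells of a type and less RNA per cell cannot be told apart, and the part of these markers in the level of Ifi208 was not tested.

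**Figure D1:**
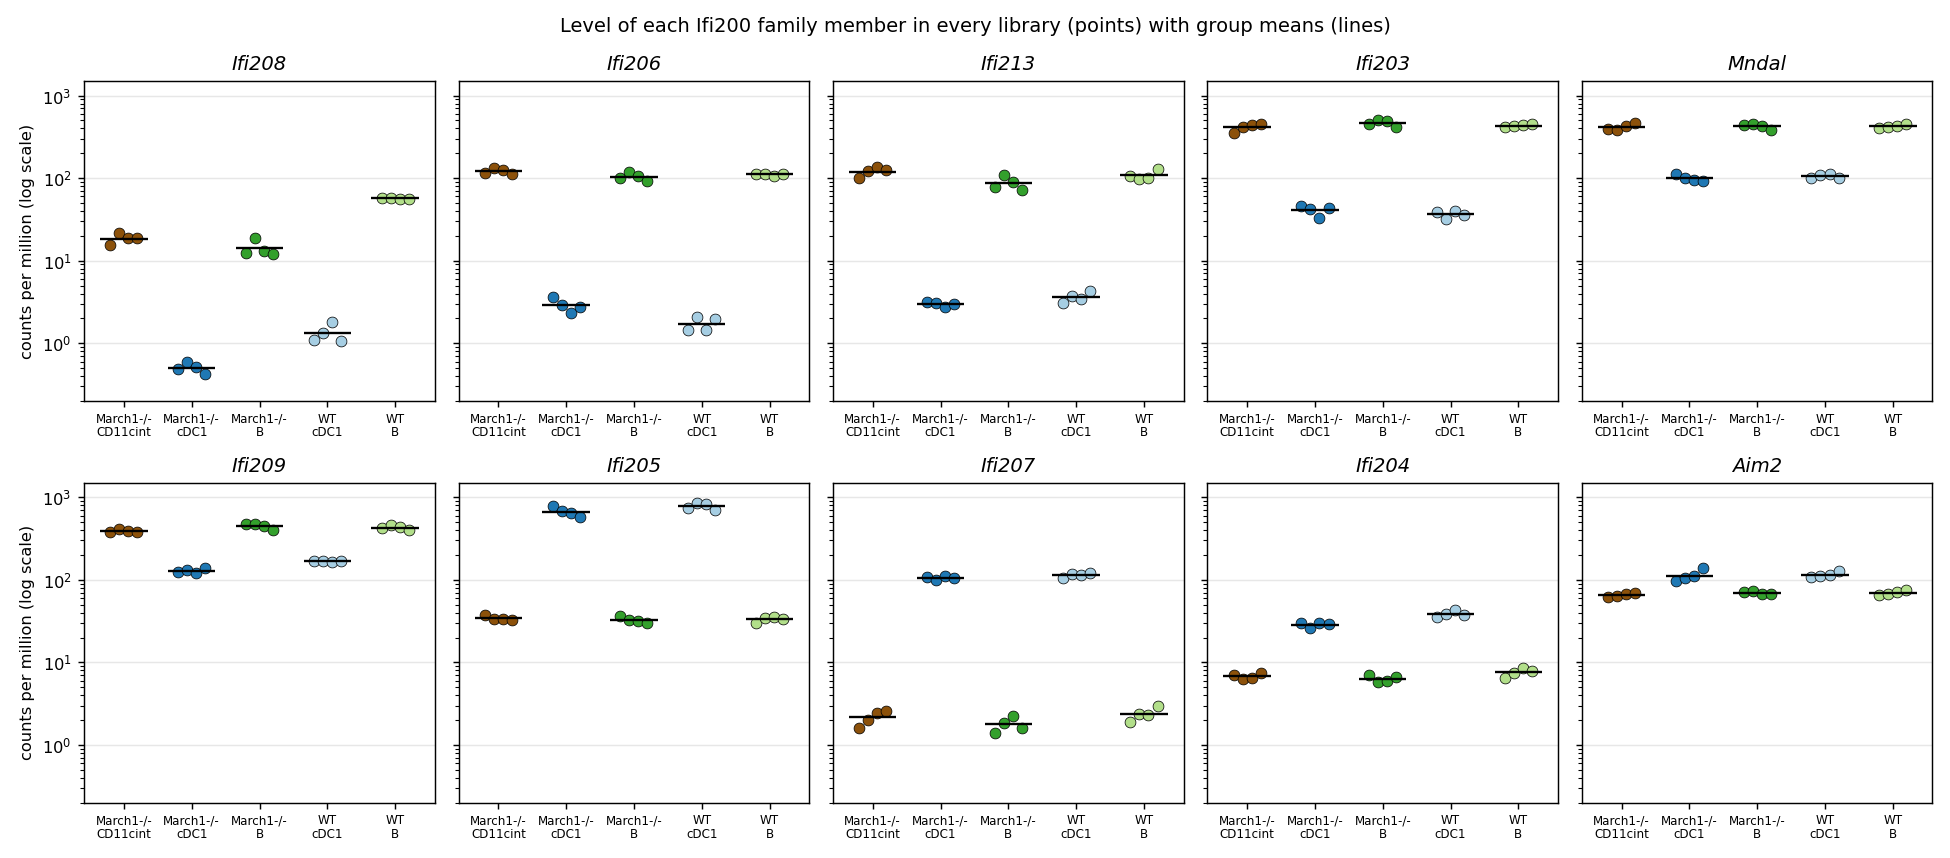
Level of each of the 10 family members in every library, in CPM on a log axis, for March1-/- CD11cint cells, March1-/- cDC1, March1-/- B cells, WT cDC1 and WT B cells (points are libraries, lines are group means, n = 4 per group). Ifi208 separates March1-/- B cells (11.96 to 18.7 CPM) from WT B cells (55.2 to 58.2 CPM), and Ifi205, Ifi207, Ifi204 and Aim2 are higher in both cDC1 groups than in the B cell groups.

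The choice of the family used no cDC1 library. Ifi208 in cDC1 was, however, at a few percent or less of its B cell level, as were the B cell markers given below. Its difference in cDC1 is therefore not shown to be independent of the B cell difference that chose the family. Ifi208 had 0.485, 0.599, 0.512 and 0.428 CPM (12 to 18 counts) in the 4 March1-/- libraries, against 1.10, 1.34, 1.80 and 1.06 CPM (26 to 39 counts) in the 4 WT libraries. No March1-/- library reached the lowest WT library, although counts were low in both groups. The log2 fold change was -1.36 ± 0.25 (SE, adjusted p = 0.00219, edgeR's quasi-likelihood test). Over 15 alternatives it lay between -1.46 and -1.20, with adjusted p-values of 1.41e-05 to 0.0385.

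Between March1-/- and WT cDC1, 4 of the 10 members passed the test, 3 of them besides Ifi208, where 2.86% of all tested genes did. Ifi208, Ifi209 and Ifi204 fell (1.34% of all tested genes fell) and Ifi206 rose (1.53% rose). These 4 were also the members whose groups did not overlap; over all tested genes, 4.03% were lower and 4.45% higher without overlap. The median log2 fold change of the 10 members was -0.16, against 0.01 over all tested genes.

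Ifi209, the neighbour of Ifi208 on the same strand, had 123.8, 132, 122 and 137 CPM in March1-/- cDC1, against 166.9, 167, 165 and 169 CPM in WT cDC1. All March1-/- libraries lay below the narrow range of the WT libraries. The log2 fold change was -0.37 ± 0.06 (adjusted p = 0.000818, edgeR). Ifi214, which shares 23.1% of the 75-base stretches of Ifi209, had 26.0 CPM in March1-/- cDC1 and 31.0 CPM in WT cDC1 on average, a log2 fold change of -0.25 ± 0.06 (adjusted p = 0.0171, edgeR) that missed the threshold when library 1 or 3 of March1-/- cDC1 or library 2 of WT cDC1 was left out (adjusted p up to 0.0802). Reads of Ifi209 and Ifi214 cannot be fully told apart.

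Ifi204, the DNA sensor p204, had 30.2, 26.3, 29.6 and 28.8 CPM in March1-/- cDC1, against 35.8, 38.6, 42.5 and 37.4 CPM in WT cDC1. The groups did not overlap, and the log2 fold change was -0.42 ± 0.08 (adjusted p = 0.00286, edgeR). Ifi211, which shares 11.3% of the 75-base stretches of Ifi204, averaged 346.5 CPM in March1-/- cDC1 and 411.6 CPM in WT cDC1. The part of shared reads in the values of Ifi204 was not tested. Ifi204 was also lower on average in March1-/- B cells, at 6.33 ± 0.552 CPM, against 7.57 ± 0.887 CPM in WT B cells (SD, n = 4 each), but there the libraries overlapped.

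Ifi206 went the other way from Ifi208, although their promoter stretches are nearly identical. It had 3.60, 2.86, 2.30 and 2.71 CPM (63 to 104 counts) in March1-/- cDC1, against 1.44, 2.05, 1.43 and 1.95 CPM (31 to 52 counts) in WT cDC1. The log2 fold change was 0.74 ± 0.15 (adjusted p = 0.00505, edgeR). With limma-voom the adjusted p was 0.0517, and over all 15 alternatives it lay between 0.000314 and 0.0517. Ifi213, the third of the trio, had 3.15, 3.03, 2.74 and 2.998 CPM in March1-/- cDC1 and 3.06, 3.75, 3.41 and 4.32 CPM in WT cDC1, which overlapped (log2 fold change -0.28 ± 0.18, adjusted p = 0.671, edgeR).

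These 3 genes are B cell genes seen at trace level in cDC1, and B cell markers were at trace level there too. Of the 7 B cell markers, 6 rose in March1-/- cDC1, all but Ms4a1. Their sum was 120.3 to 162 CPM in March1-/- cDC1, against 92.4 to 106 CPM in WT cDC1, which is 1.67 to 2.24% of the mean of WT B cells in March1-/- cDC1 and 1.28 to 1.47% in WT cDC1. None of the 7 was at 0. Of the other lists, 4 of 7 marginal zone, 2 of 5 follicular, 2 of 5 plasmacytoid dendritic cell, 1 of 5 plasma cell and 1 of 5 cDC2 markers were higher in March1-/- cDC1. Ms4a1 averaged 2.92% of its WT B cell level in March1-/- cDC1 and 3.24% in WT cDC1. It made up a large part of the sum, with 52.85 CPM in March1-/- cDC1 and 58.54 CPM in WT cDC1. The other 6 B cell markers averaged 1.22 to 2.22% of WT B cells in March1-/- cDC1 and 0.624 to 1.325% in WT cDC1.

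Set on the same scale, Ifi206 was at 2.08 to 3.25% of its WT B cell level in March1-/- cDC1, against 1.29 to 1.86% in WT cDC1, and so was higher in the group where B cell markers were higher. Ifi213 was at 2.51 to 2.89% in March1-/- cDC1, against 2.80 to 3.95% in WT cDC1. Ifi208 was at 0.755 to 1.06% in March1-/- cDC1, against 1.87 to 3.17% in WT cDC1, and so was lower in that group. Against B cells of its own genotype, Ifi208 averaged 3.59% in March1-/- cDC1 and 2.34% in WT cDC1. The part of B cell RNA in the cDC1 values of Ifi206, Ifi208 and Ifi213 was not tested. For Ifi209 and Ifi204 the cDC1 level was 129 and 28.7 CPM on average in March1-/- cDC1 and 167 and 38.6 CPM in WT cDC1. For Ifi209 that is 28.6% of the B cell level of the same genotype in March1-/- cDC1 and 38.9% in WT cDC1, and Ifi204 was higher in cDC1 than in B cells. Both were lower in the group where B cell markers were higher. The part of B cell RNA in their values was not tested. Itgae was the 1 of 9 cDC1 markers that differed, at 33.9 CPM in March1-/- cDC1 and 104.9 CPM in WT cDC1 on average; its part in these values was not tested either.

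**Figure D2:**
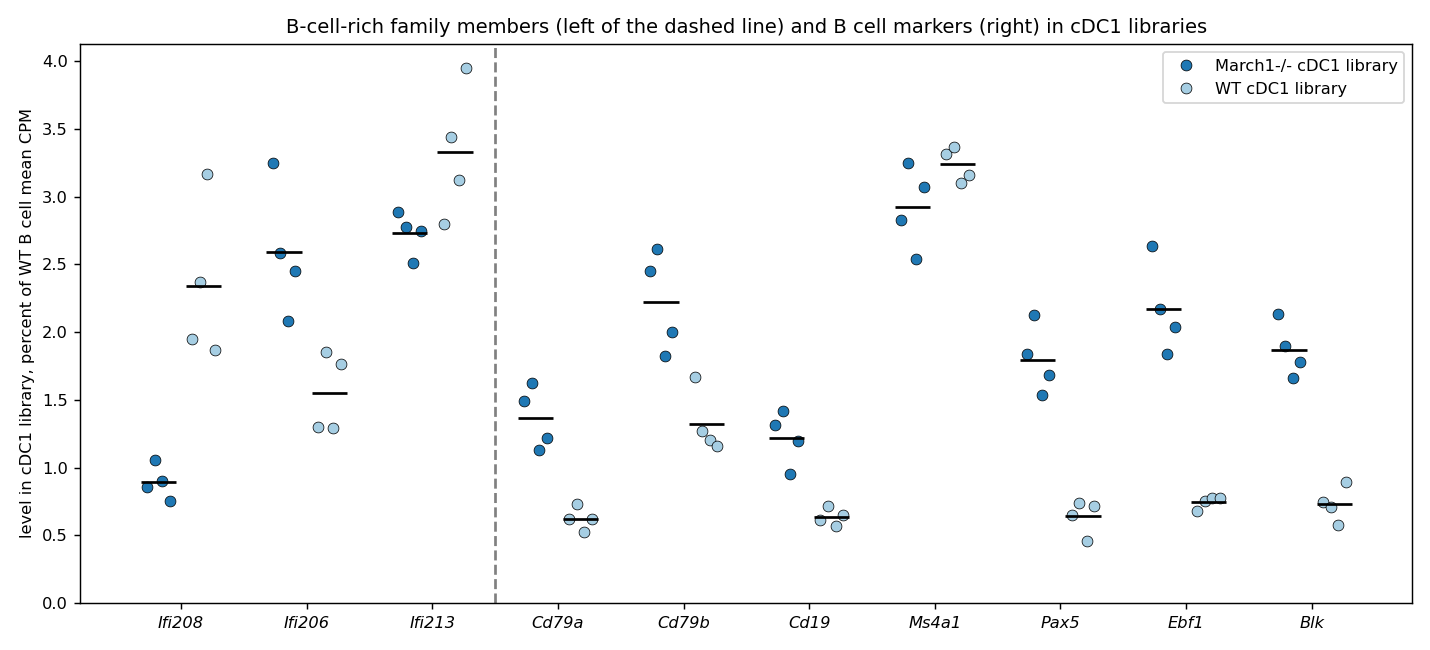
Level in each cDC1 library of Ifi208, Ifi206 and Ifi213 (left of the dashed line) and of the 7 B cell markers (right), as a percent of the mean CPM of WT B cells; points are libraries, lines are means, March1-/- left of WT (n = 4 each). Ifi206 and 6 of the 7 markers are higher in March1-/- cDC1, whereas Ifi208 lies at 0.755 to 1.06% in March1-/- cDC1 and 1.87 to 3.17% in WT cDC1.

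The remaining 5 members did not pass in cDC1. Ifi205, the most abundant member there, had 573 to 778 CPM in March1-/- cDC1, against 709 to 845 CPM in WT cDC1, a log2 fold change of -0.22 ± 0.09 (adjusted p = 0.292, edgeR). Without the 3 March1-/- libraries numbered 1 it was -0.30, with an adjusted p of 0.0256 (0.0256 to 0.628 over its alternatives), and the count of members past the threshold was then 5. Ifi211, with which Ifi205 shares sequence, had a log2 fold change of -0.25 ± 0.09 (adjusted p = 0.172, edgeR). It came to -0.33 and passed without library 1 of March1-/- cDC1 (adjusted p = 0.0433, edgeR) and without all 3 libraries numbered 1 (0.00981). Ifi207, Mndal and Aim2 had log2 fold changes of -0.11 ± 0.09, -0.08 ± 0.08 and -0.04 ± 0.08, and Ifi203 one of 0.17 ± 0.10. For Aim2 the 2 groups were nearly level, at 112.7 ± 18.1 CPM in March1-/- cDC1 and 115.6 ± 9.14 CPM in WT cDC1 (SD, n = 4 each).

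**Figure D3:**
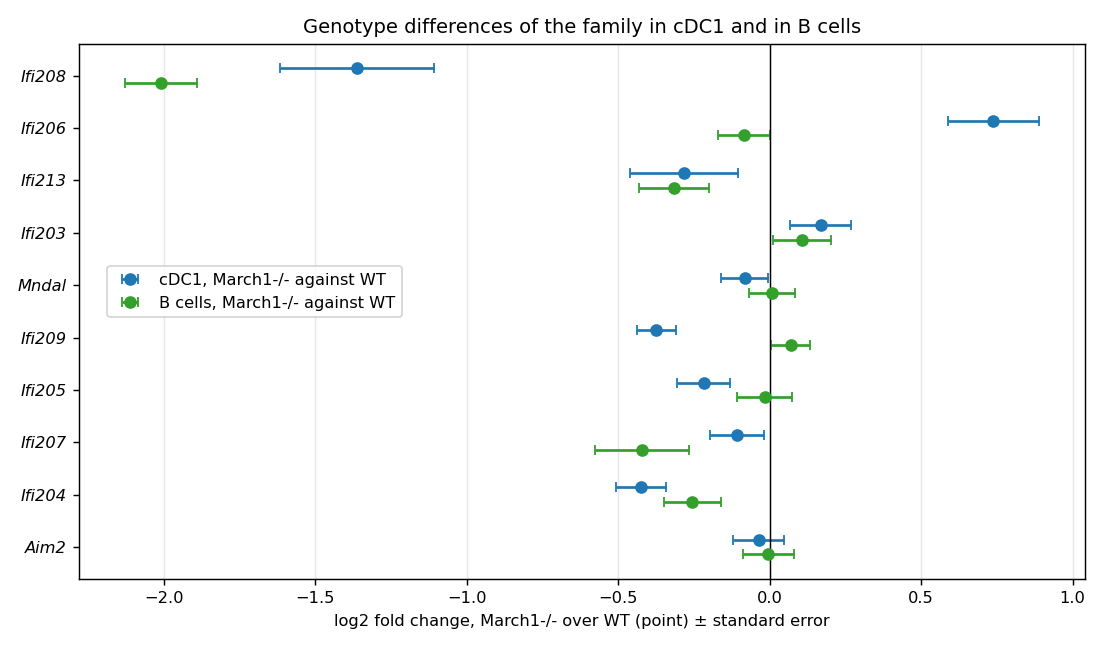
Log2 fold change of March1-/- over WT for each member, in cDC1 (blue) and in B cells (green), with standard errors from the edgeR fit (n = 4 libraries per group). Ifi208 is lowest in both cell types, at -1.36 in cDC1 and -2.01 in B cells; the B cell difference of Ifi208 chose the family.

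The genotype effect in cDC1 minus that in B cells was 0.65 ± 0.30 (SE, log2) for Ifi208, 0.82 ± 0.17 for Ifi206 and -0.44 ± 0.09 for Ifi209. It lay between -0.20 and 0.31 for the other 7. These values contain the B cell difference that chose the family and are given without a test.

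CD11cint cells had family levels close to those of March1-/- B cells. Ifi208 was at 15.3, 21.4, 18.6 and 18.6 CPM in CD11cint libraries, against 12.6, 18.7, 13.2 and 11.96 CPM in March1-/- B cells. The groups overlapped, and the log2 fold change of 0.39 ± 0.12 is given without a test, since it uses the B cell libraries that chose the family. All CD11cint libraries lay under the WT B cell libraries, at 18.5 ± 2.51 CPM in CD11cint cells and 56.7 ± 1.24 CPM in WT B cells (SD, n = 4 each), a pair that differs in both cell population and genotype.

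Of the 9 members besides Ifi208, 2 passed between CD11cint cells and March1-/- B cells, where 24.7% of all tested genes passed (12.5% higher and 12.2% lower). Ifi213 rose, with 99.0, 120.8, 134.9 and 125 CPM in CD11cint cells, against 77.7, 109.8, 90.6 and 72.5 CPM in March1-/- B cells (log2 fold change 0.45 ± 0.12, adjusted p = 0.00579, edgeR). Ifi209 fell, with 376 to 414 CPM in CD11cint cells, against 406 to 476 CPM in March1-/- B cells (log2 fold change -0.20 ± 0.06, adjusted p = 0.0212, edgeR). Both pairs of groups overlapped by at least 1 library. The call of Ifi209 was lost without library 1 or 2 of March1-/- B cells or library 4 of CD11cint cells, or without the 3 March1-/- libraries numbered 1, and its adjusted p ranged from 0.00207 to 0.103 over 16 alternatives. Ifi206 had 112 to 132 CPM in CD11cint cells, against 93.2 to 118 CPM in March1-/- B cells, and missed the threshold (log2 fold change 0.21 ± 0.09, adjusted p = 0.0771, edgeR). It passed when libraries of the same number were paired within genotype (0.22, adjusted p = 0.0169, edgeR), with limma-voom, and without library 2 of March1-/- B cells or library 4 of CD11cint cells, and the adjusted p ranged from 0.0169 to 0.230 over its alternatives.

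Subset markers differed here as well. All 7 marginal zone markers were higher in CD11cint cells (4193 to 4882 CPM, against 1783 to 2650 CPM in March1-/- B cells), 5 of 5 tested immature markers were lower (sum over 6 listed genes 32.5 to 47.0 CPM, against 133 to 224 CPM in March1-/- B cells), and of 5 follicular markers 4 were lower and 1 higher. All 5 B-1 cell markers were lower (24.9 to 40.9 CPM in CD11cint cells, against 90.3 to 142 CPM in March1-/- B cells), as were all 5 NK cell markers (3.08 to 8.36 CPM in CD11cint cells, against 15.8 to 58.9 CPM in March1-/- B cells), 5 of 7 T cell markers (31.1 to 37.1 CPM in CD11cint cells, against 72.9 to 89.2 CPM in March1-/- B cells), 3 of 5 plasma cell markers (393 to 415 CPM in CD11cint cells, against 427 to 547 CPM in March1-/- B cells) and 3 of 6 monocyte markers (20.7 to 26.1 CPM in CD11cint cells, against 39.3 to 42.9 CPM in March1-/- B cells). Of the 9 cDC1 markers 6 were higher (28.7 to 36.3 CPM in CD11cint cells, against 19.2 to 26.7 CPM in March1-/- B cells). Of the lists left, 1 of 7 B cell markers was higher, 1 of 5 plasmacytoid dendritic cell and 1 of 5 cDC2 markers were lower, and of 8 macrophage markers 1 was higher and 1 lower. The part of these markers in the values of Ifi213 and Ifi209 was not tested.

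Members differed in both directions between cDC1 and B cells, as did most tested genes. In WT mice all 9 members other than Ifi208 differed, where 71.1% of all tested genes did (34.9% higher and 36.2% lower): Ifi207, Ifi205, Ifi204 and Aim2 were higher in cDC1, and Ifi206, Ifi213, Ifi203, Mndal and Ifi209 were lower. Ifi207 had 106 to 121 CPM in WT cDC1, against 1.89 to 2.97 CPM in WT B cells (log2 fold change 5.60 ± 0.12, adjusted p = 3.06e-21, edgeR). Ifi205 had 709 to 845 CPM in WT cDC1, against 30.0 to 35.2 CPM in WT B cells (4.56 ± 0.10, adjusted p = 6.41e-21, edgeR).

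Ifi204 was 5.09-fold higher in WT cDC1 and Aim2 1.66-fold higher (log2 fold changes 2.35 ± 0.09 and 0.73 ± 0.09). Ifi206 was lower in cDC1, with 1.43 to 2.05 CPM in WT cDC1 and 104.6 to 113.6 CPM in WT B cells (-6.00 ± 0.12, adjusted p = 1.76e-21, edgeR). Ifi213 was at -4.91 ± 0.15 and Ifi203 at -3.56 ± 0.11. Mndal and Ifi209 kept a substantial cDC1 level, at 106 ± 5.81 and 167 ± 1.64 CPM in WT cDC1 and 423 ± 23.8 and 429 ± 24.5 CPM in WT B cells (SD, n = 4 each). Ifi208 had a log2 fold change of -5.43 ± 0.16, given without a test. The groups of the 9 tested members did not overlap, which held for 33.8% of all tested genes in the higher and 34.8% in the lower direction.

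In March1-/- mice the same 4 members were higher and, of the 6 others, the same 5 besides Ifi208 were lower in cDC1 than in B cells, where 71.5% of all tested genes passed (35.7% higher and 35.9% lower). The log2 fold changes ran from 5.91 ± 0.13 for Ifi207 to -5.18 ± 0.11 for Ifi206. Ifi208 was at -4.78 ± 0.19, again without a test. CD11cint cells against March1-/- cDC1 gave the mirror image, with 6 members higher in CD11cint cells, 4 lower and 72.3% of all tested genes past the threshold (36.6% higher and 35.7% lower). There Ifi208 had 15.3 to 21.4 CPM in CD11cint cells, against 0.428 to 0.599 CPM in March1-/- cDC1 (log2 fold change 5.18 ± 0.18, adjusted p = 3.05e-17, edgeR). These comparisons share libraries with one another and are not independent.

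**Figure D4:**
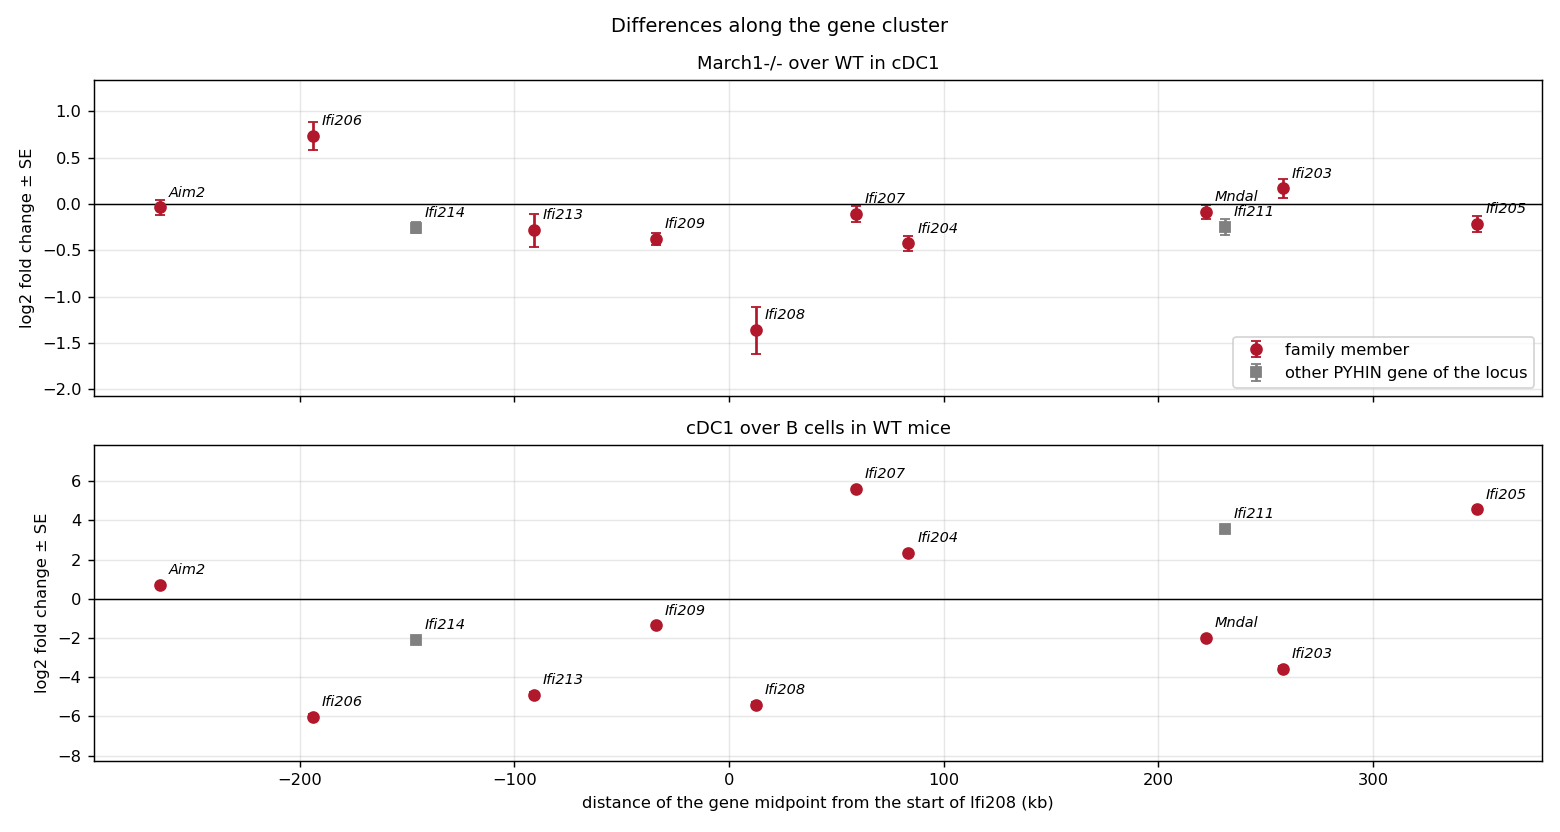
Log2 fold change with standard error of the family members (circles) and of Ifi214 and Ifi211 (squares), placed by the distance of the gene midpoint from the start of Ifi208 in kb; top, March1-/- over WT in cDC1, bottom, cDC1 over B cells in WT mice (n = 4 libraries per group). Ifi208 is the lowest point of the top panel at -1.36, and in the bottom panel genes higher in cDC1 and genes higher in B cells are interspersed along the cluster.

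Per length, in RPKM (CPM divided by the exon length in kb), the order of levels in March1-/- B cells was Ifi209 (127), Mndal (117), Ifi203 (69.2), Ifi206 (34.1), Aim2 (19.9), Ifi213 (12.8), Ifi205 (7.85), Ifi208 (2.68), Ifi204 (1.78) and Ifi207 (0.517). In WT B cells it was Ifi209 (121), Mndal (116.5), Ifi203 (64.3), Ifi206 (36.2), Aim2 (19.96), Ifi213 (16.0), Ifi208 (10.8), Ifi205 (7.94), Ifi204 (2.13) and Ifi207 (0.692). Ifi208 and Ifi205 thus stand in opposite order in the 2 genotypes. Ifi208 RPKM ranged from 2.28 to 3.55 in March1-/- B cells and from 10.5 to 11.1 in WT B cells, and Ifi205 RPKM from 7.16 to 8.82 in March1-/- B cells and from 7.19 to 8.42 in WT B cells. Neighbours in this order whose libraries overlapped were Ifi209 and Mndal in both genotypes and Aim2 and Ifi213 in WT.

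In CD11cint cells Mndal (114.5 RPKM) and Ifi209 (110.4 RPKM) led, with overlapping libraries, and Ifi208 stood at 3.52 RPKM, between Ifi205 (8.23 RPKM) and Ifi204 (1.90 RPKM) and overlapping neither. In cDC1 Ifi205 led at 161 RPKM in March1-/- and 187 RPKM in WT. Ifi209 came next on average at 36.4 RPKM in March1-/- cDC1 and 47.1 RPKM in WT cDC1. Its March1-/- cDC1 libraries (34.5 to 38.7 RPKM) overlapped those of Aim2 (27.6 to 39.5 RPKM). Aim2, Ifi207 and Mndal averaged 27.5 to 32.2 RPKM in March1-/- cDC1, with overlapping libraries, and 29.1 to 33.5 RPKM in WT cDC1. In WT cDC1 Aim2 overlapped Ifi207 and Mndal, but Mndal (27.7 to 31.06 RPKM) lay just under Ifi207 (31.1 to 35.3 RPKM). Ifi204 had 8.06 RPKM in March1-/- and 10.8 RPKM in WT cDC1, and Ifi203 6.15 RPKM in March1-/- and 5.47 RPKM in WT cDC1. Ifi206, Ifi213 and Ifi208 averaged at most 0.940 RPKM in either genotype, with Ifi208 lowest at 0.0962 RPKM in March1-/- cDC1 and 0.252 RPKM in WT cDC1. Summed over the 10 members, the level was 1655 ± 118.5 CPM in March1-/- B cells and 1673 ± 41.8 CPM in WT B cells, and 1195 ± 78.3 CPM in March1-/- cDC1 and 1366 ± 68.7 CPM in WT cDC1 (SD, n = 4 each).

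The genes whose pattern was most like that of Ifi208 over the 20 libraries were mostly immunoglobulin genes. By Pearson's r on log2 CPM they were Ighv1-26 (0.99), Ighg3 (0.98), Cyp4f18 (0.98), Ighv1-34 (0.98) and Igkv4-55 (0.98). The libraries fall into B-like and cDC1 clusters, so r mainly reads that split and is given as a description. Ighv1-26 had 28.5 to 35.4 CPM in March1-/- B cells and 67.3 to 95.5 CPM in WT B cells. Cyp4f18, which encodes a cytochrome P450, had 32.5 to 59.1 CPM in March1-/- B cells and 81.1 to 97.1 CPM in WT B cells. The likeness was taken over libraries that include these groups, so nothing is read from these levels. Within the family, Ifi208 was most like Ifi213 (r = 0.95), and Ifi205 and Ifi207 were most like each other (0.99).

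Other genes of the interferon and DNA-sensing pathways were counted beside the family. Between March1-/- and WT cDC1, 2.86% of all tested genes passed (1.53% higher and 1.34% lower). In March1-/- cDC1, 2 of 35 interferon response genes fell and none rose: Ifitm3, an antiviral membrane protein (-0.50 ± 0.12, adjusted p = 0.0188, edgeR), and Usp18, a brake on interferon receptor signalling (-0.27 ± 0.07, adjusted p = 0.0374, edgeR). Ifitm3 missed the threshold without library 1, 2 or 3 of March1-/- cDC1 or library 1 or 4 of WT cDC1 (adjusted p = 0.0512 to 0.0994, edgeR), and Usp18 without library 1, 2 or 4 of March1-/- cDC1 or library 1, 3 or 4 of WT cDC1 (0.0627 to 0.175). The count was 0 to 4 with 1 library left out. At an unadjusted p under 0.05 in edgeR stood 18 of the 35. Of 15 interferon-gamma induced GTPases, 5 fell and none rose, a count of 4 to 6 with 1 library left out. An unadjusted p under 0.05 in edgeR was reached by 7 of them. Gbp4, a guanylate-binding protein, had 19.2 CPM in March1-/- cDC1 and 33.4 CPM in WT cDC1 (-0.80 ± 0.15, adjusted p = 0.00258, edgeR), and Gbp5 had 19.0 CPM in March1-/- cDC1, against 30.2 CPM in WT cDC1 (-0.67 ± 0.11). Tgtp1 and Tgtp2, near-identical copies whose reads cannot be fully told apart, were at -0.67 ± 0.11 and -0.59 ± 0.11.

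Of 16 genes of interferon receptors and signalling 2 fell, Usp18 and the transcription factor Irf1 (-0.34 ± 0.09), a count of 0 to 2 with 1 library left out. Irf1 missed the threshold without library 1, 2 or 4 of March1-/- cDC1 or library 2, 3 or 4 of WT cDC1 (adjusted p = 0.0565 to 0.154, edgeR). Of 16 genes of cytosolic DNA sensing (cGAS-STING) none passed with edgeR, DESeq2 or limma-voom, and 1 had an unadjusted p under 0.05 in edgeR. That level was reached by 3 of the 16 receptor and signalling genes and by 4 of 19 inflammasome genes. Of 19 inflammasome genes 2 fell, the cytokine Il1b (-0.80 ± 0.18) and the caspase Casp4 (-0.52 ± 0.11), a count of 1 to 2 with 1 library left out. Il1b missed the threshold with DESeq2, with only the compared groups, with no filter, and without library 2, 3 or 4 of March1-/- cDC1 or library 4 of WT cDC1 (adjusted p = 0.0547 to 0.129). The median log2 fold change was -0.18 for interferon response genes, -0.12 for the GTPases, -0.04 for receptors and signalling, 0.02 for DNA sensing and -0.04 for the inflammasome, against 0.01 over all tested genes.

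Between March1-/- and WT B cells, where 4.76% of all tested genes passed, each list had at most 2 called genes. Of 35 interferon response genes 1 was higher (Irf7, 0.31 ± 0.08) and 1 lower (Isg15, -0.57 ± 0.14). Of the 15 GTPases none passed with edgeR (4 at an unadjusted p under 0.05), 1 with DESeq2 and 1 with limma-voom. Of the 16 receptor and signalling genes none passed with edgeR (4 at an unadjusted p under 0.05) or limma-voom, 2 with DESeq2, and 2 with edgeR without the 3 March1-/- libraries numbered 1. Of 16 DNA-sensing genes Samhd1 was higher (0.31 ± 0.08) and Ikbke lower (-0.43 ± 0.09), and of 19 inflammasome genes Nlrp1b (-0.85 ± 0.22) and Naip2 (-0.36 ± 0.09) were lower. An unadjusted p under 0.05 in edgeR was reached by 8 of the 35 interferon response genes. The same held for 5 of the 16 DNA-sensing and 5 of the 19 inflammasome genes. The medians of the 5 lists lay between -0.24 and 0.06. With 1 library left out the counts were 0 to 2 for interferon response genes, 0 to 1 for the GTPases, 0 for receptors and signalling, 1 to 2 for DNA sensing and 0 to 3 for the inflammasome. No called gene was left among interferon response genes without library 1 or 4 of March1-/- B cells or library 1 of WT B cells, and none among inflammasome genes without library 1 or 3 of March1-/- B cells or library 1 of WT B cells.

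In CD11cint cells against March1-/- B cells, 9 interferon response genes rose and 4 fell of 35. Isg15 had 17.0 CPM in CD11cint cells, against 7.94 CPM in March1-/- B cells (1.10 ± 0.14, adjusted p = 4.93e-06, edgeR), and Ifit3 had 31.1 CPM in CD11cint cells, against 21.2 CPM in March1-/- B cells (0.55 ± 0.13). Of the GTPases 3 rose and 1 fell of 15, of receptors and signalling 2 rose and 4 fell of 16, with Ifnar1, a chain of the type I interferon receptor, at -0.62 ± 0.07, of DNA sensing 1 rose and 5 fell of 16, and of the inflammasome 7 rose and 2 fell of 19. With 1 library left out, 9 to 12 interferon response genes passed, against 13 in the main fit. The counts were then 2 to 5 for the GTPases and 4 to 6 for receptors and signalling. They were 5 to 6 for DNA sensing and 6 to 10 for the inflammasome. Without library 2 of CD11cint cells 2 GTPases passed. The background was the 24.7% of all tested genes given above.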

How the data were processed

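RNA libraries were prepared with an Illumina TruSeq kit from cells sorted at 95 to 99% purity, per the labels' protocols. The deposited files hold raw counts for each gene, by library and lane and for the series as a whole. GRCm38 (mm10) is the build, and STAR, Subread, edgeR, limma, FastQC and CASAVA are the tools, that the submitters' processing notes list. Tool versions, annotation release, read length, strand setting and handling of reads that match several genes are not given in the sources used here. Lane counts were added, which equalled the series table in all 566760 cells; 28290 of 28338 gene identifiers matched GENCODE M21 and gave symbols.

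Comparisons used the quasi-likelihood F test of edgeR 4.0.16 (R 4.3.3) with TMM factors and filterByExpr (18710 genes tested) in 1 fit of all 5 groups, adjusted over all tested genes by Benjamini-Hochberg. A gene is called, or passes, at an adjusted p under 0.05. CPM use TMM-scaled library sizes, RPKM divide by the exon bases of the gene, and log2 CPM a prior count of 2. The fit was tested on simulated data with 200 changed genes. DESeq2 1.42.0 and limma-voom (limma 3.58.1) were alternatives, beside other size factors, no filter, only the compared groups, replicate blocks, single lanes and left-out libraries. Groups and numbers come from the titles. Libraries of the same number deviated together (every correlation over 0.1) between CD11cint cells and March1-/- B cells (0.331 to 0.619). The same held for March1-/- cDC1 and March1-/- B cells (0.145 to 0.246) and for WT cDC1 and WT B cells (0.136 to 0.422). In the other pairs of compared groups not every correlation was over 0.1. The main fit had no block for these numbers, so its p-values do not use the pairing. Libraries were paired only in the replicate block alternatives. Promoters are from RefSeq on GRCm38.p6, compared with Biopython 1.88; figures used matplotlib 3.10.9.

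The members, gene lists and naming rules were chosen with earlier results of these data known. All 10 members are named; of each pathway list, up to 4 called genes with the largest change per comparison; and the 5 genes outside the family most like Ifi208 by Pearson's r with a mean of at least 10 CPM in 1 group.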

Additional observations from a re-analysis of the deposited data

Results flagged for a closer look

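Ifi205 in library 1 of CD11cint cells stood apart from the other 3 libraries of its group, at 37.7 CPM, against 32.99 to 33.5 CPM in the others. It was the only such library among the 50 groups of 4 values (10 members in 5 groups). Chance gives about 1 in 20 groups, so 1 in 50 is no more than chance gives. The same library stood apart over all genes.

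Ifi206 and Ifi209 were flagged for the genotype effect in cDC1 minus that in B cells. The flag came from a fit that holds the B cell comparison, so it is not read as a test. Values of the other members are given above. The effect in cDC1 minus that in B cells was 0.824 on the log2 scale for Ifi206 (SE 0.17) and -0.443 for Ifi209 (SE 0.09). Ifi206 was higher in 4 of 4 March1-/- cDC1 libraries than in any WT cDC1 library and Ifi209 lower in 4 of 4, while the B cell libraries of both genes overlapped between genotypes. No p is given, because the B cell comparison chose the family. B cell markers were higher in March1-/- than in WT cDC1, and their part in the value of Ifi206 was not tested.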

How the results depend on the processing

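The count of family members past the threshold was the same or within 1.5 times in 91 of 94 recomputed counts. Between CD11cint cells and March1-/- B cells it was 3, Ifi208 included, where 24.7% of all tested genes passed in the main fit. It was 1 when only the compared groups were fitted, and 1 to 3 with 1 library left out. With 1 library left out it was 4 in every case between March1-/- and WT cDC1, where 2.86% of all tested genes passed in the main fit. It was 10, Ifi208 included, in the 3 comparisons of cDC1 with B cells or CD11cint cells, where 71.1 to 72.3% passed. Ifi208 has no test of its own in comparisons that use the B cell libraries. Nothing is therefore read from counts that include it there. Between March1-/- and WT B cells no count is given, since that comparison chose the family. No called member changed direction under any alternative. The cause of the lost calls was not tested. With the replicate block, where numbers pair libraries, the count between CD11cint cells and March1-/- B cells was 4, with Ifi206 added, and no other family call changed; where they do not, the block kept 4 members called in cDC1, raised the interferon response genes called in cDC1 to 9, against 2 without the block, and gave 1328 genes of all tested in B cells, against 890. All genes called between March1-/- and WT B cells ranged from 574 to 879 with 1 library left out, and those between CD11cint cells and March1-/- B cells came to 3018 with only the compared groups, against 4613. Single lanes gave levels within 1 SD in 98 of 100 cases. Depth limits Ifi208 in cDC1, at 12 to 39 counts per library.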

Other observations

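At both edges of the cluster stood a gene that was higher in cDC1 than in B cells. Cadm3, a cell adhesion gene whose annotated span overlaps that of Aim2, had 28.0 CPM in March1-/- cDC1 and 26.9 CPM in WT cDC1 on average, against 0.331 CPM in March1-/- B cells and 0.479 CPM in WT B cells. Olfr433, an olfactory receptor gene beyond Ifi205, had 6.71 CPM in March1-/- cDC1 and 8.57 CPM in WT cDC1, against 0.475 CPM in March1-/- B cells and 0.415 CPM in WT B cells. Neither gene passed between genotypes in cDC1 or in B cells. Ifi202b, a further gene of the cluster, held 16 counts over all 20 libraries and was not tested.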
